A study of Mus musculus with 16 samples.

Results

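Liver sinusoidal endothelial cells (ECs) and hepatic stellate cells (HSCs) form the wall of the sinusoid, and their RNA was compared in the 4 EC and 4 HSC libraries of a series of 16 libraries that also covers Kupffer cells and hepatocytes. The 8 libraries were chosen by the cell type in their labels, and 2 of each 4 are labelled WT and 2 KO. All came from unchallenged livers of adult male mice that carried floxed Zeb2 alleles on an eGFP reporter background and received tamoxifen at 2 mg per day on 5 days. The mice labelled KO expressed Cdh5-CreERT2, a tamoxifen-inducible Cre recombinase under an endothelial promoter, and those labelled WT were littermates without Cre. After density centrifugation the cells were sorted, HSCs by the autofluorescence of their retinoid droplets and ECs by the Meca32 (pan-endothelial) antigen, the product of Plvap. The ECs were taken from cells without this autofluorescence. Each library is a bulk sample, in which fewer cells of a type and less RNA per cell cannot be told apart. The paper describes isolating 4 hepatic cell types at the same time from liver suspensions, so that EC and HSC libraries may share mice. Which libraries share a mouse is not stated, so that no pairing was fitted and p-values measure only the spread between these libraries.

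ECs of the sinusoid are fenestrated, rest on sparse matrix without a continuous basement membrane, and clear macromolecules and immune complexes from blood through scavenger receptors. HSCs are the pericytes of the sinusoid. They lie in the space of Disse between ECs and hepatocytes, store vitamin A as retinyl esters, contract around the sinusoid, and are the main source of collagen when the liver scars. The 2 cell types exchange signals over a very short distance: vasoactive signals set HSC tone, growth factors of the VEGF, PDGF, BMP, Wnt and Notch families maintain both cells and the hepatocytes beside them, and chemokines recruit and hold leukocytes.

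The depth of the 8 libraries was close, with 12872706 to 15629598 reads counted on genes. Levels are given as normalized CPM, that is, each count over its TMM-scaled library size, and 4 values are always given in the order WT, WT, KO, KO. Zeb2, the targeted gene, stood at 100.1, 96, 176 and 125 CPM in ECs and at 454, 442, 563 and 466 CPM in HSCs, so that it was higher in all HSC than in all EC libraries, and the KO label went with no fall of Zeb2 in ECs. Groups are therefore called by their labels. The counts cover the whole gene, and reads of the floxed exon were not counted on their own. The paper reports that tamoxifen deleted Zeb2 efficiently in ECs, measured on mRNA.

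The labels of the cell types held against their markers. Stab2, a hyaluronan scavenger receptor, reached 3519.5, 3619, 3856 and 3753 CPM in ECs and 138, 68.6, 49.2 and 99.6 CPM in HSCs. Kdr, the main VEGF receptor, reached 2338, 1764, 1790.5 and 1566 CPM in ECs and 134, 42.1, 28.9 and 10.2 CPM in HSCs. Both endothelial genes separated the cell types in every library. Lrat, which makes retinyl esters, reached 18.2, 43.3, 9.34 and 11.8 CPM in ECs and 982, 2402, 1764 and 1912 CPM in HSCs. Because HSCs were gated by retinoid autofluorescence and ECs by its absence, Lrat is not independent of the sort. Pdgfrb, a PDGF receptor of mural cells, reached 10.1, 14.3, 2.52 and 6.27 CPM in ECs and 993, 825, 683 and 567 CPM in HSCs. None of these 4 genes overlapped between the cell types. Of 14 EC markers all 14 were higher in ECs, and of 14 HSC markers all 14 were higher in HSCs, each past the threshold of an adjusted p of 0.05. A small share of each marker set was present in the other cell. EC markers stood in HSC libraries at 1.3% to 5.01% of their EC level and HSC markers in EC libraries at 0.354% to 1.37% of their HSC level (median over the list). Dcn, a matrix proteoglycan on the HSC list, had a mean of 353 CPM in ECs, 197 CPM in Kupffer cells and 136 CPM in hepatocytes against 38576 CPM in HSCs. Levels of several percent or less of the other cell's are therefore given as measured, and whether they belonged to the cell itself was not tested. The gate gene Plvap was far lower in the ECs sorted with its antigen, at 443, 292, 196 and 306 CPM, than in HSCs, at 7859, 8596, 7150.5 and 10839.8 CPM. As a gene used to choose the cells it is given as a value only.

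**Figure D1:**
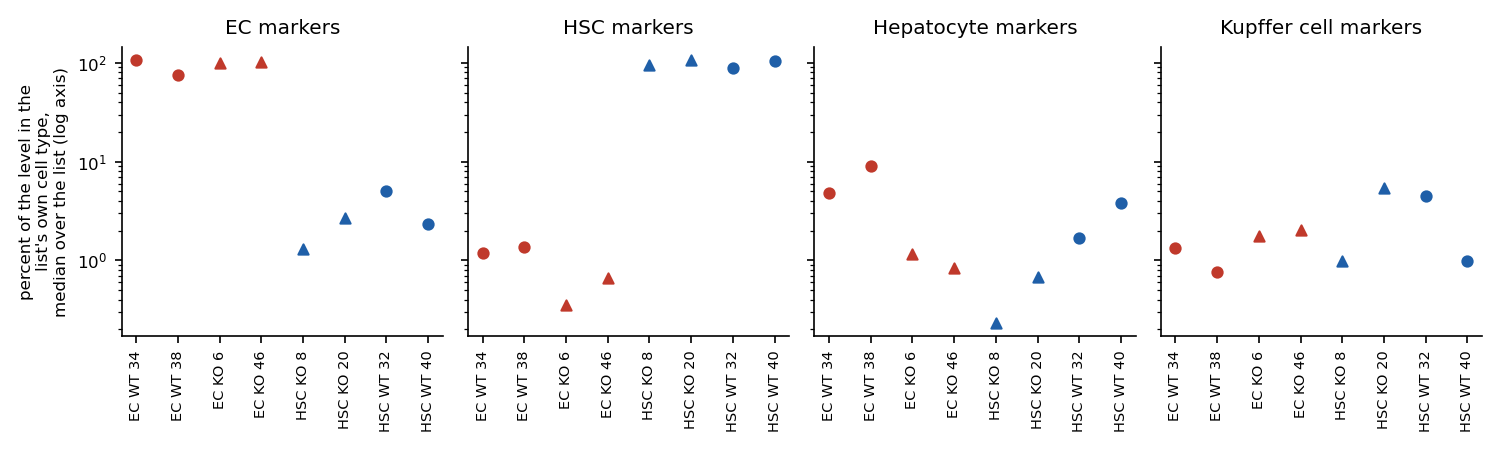
Level of 4 marker lists in each of the 8 libraries, as percent of the mean level in the list's own cell type (y axis, log scale, median over the list), with ECs in red, HSCs in blue, circles for libraries labelled WT and triangles for those labelled KO. EC and HSC markers separate all 8 libraries, and hepatocyte markers reach 9.09% in the EC library WT 38 and 0.233% in the HSC library KO 8.

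Other cells were present at low levels that differed between libraries. The 10 hepatocyte markers stood at 0.839% to 9.09% of their hepatocyte level in ECs and at 0.233% to 3.8% in HSCs, and 4 of them, Apoa1, Serpinc1, Fga and Tat, were called higher in ECs. The first 3 of these calls were lost in 6, 7 and 5 of the 8 fits that left out a library (adjusted p up to 0.0828, 0.128 and 0.0673). The 10 Kupffer cell markers stood at 0.764% to 2.02% of their Kupffer level in ECs and at 0.984% to 5.44% in HSCs, with none called. Summed levels of 9 lymphocyte markers were 63.2 to 248 CPM in ECs and 9.63 to 32.1 CPM in HSCs, and 8 of the 9 were called higher in ECs, of which Trbc2 and Ncr1 lost the call in 3 and 6 of these fits. Genes of at least 10 CPM in hepatocytes and 8-fold above Kupffer cells are called hepatocyte-enriched, and the reverse Kupffer-enriched, whatever their own level in ECs or HSCs. Of all genes tested 15.8% were called higher in each cell type, the share to hold beside every count of calls in this paragraph. Of 845 hepatocyte-enriched genes tested 27.9% were higher in ECs and 9.47% in HSCs. By the split rule given below (past the threshold and at least 8-fold) 3.08% and 4.38% fell to these sides, against 4.84% and 6.68% of all genes. Of 1596 Kupffer-enriched genes tested 26.2% were higher in ECs and 16.5% in HSCs, and 5.70% and 4.64% were split. The 5 cholangiocyte markers summed to 125 to 249 CPM in ECs and 43.9 to 108 CPM in HSCs, with 3 called higher in ECs. The 6 neutrophil markers and the 5 erythroid markers gave no call, and 1 of 5 mesothelial markers, Krt8, was called higher in ECs. Of 7 portal fibroblast markers, Dpt, Eln and Entpd2 were higher in HSCs and Cd34 in ECs. Of 6 smooth muscle markers, Myh11, Smtn and Tagln were higher in HSCs. Of 7 markers of large vessel endothelium, Vwf, Selp and Efnb2 were higher in ECs and Hey1 in HSCs. Of 4 lymphatic markers, Prox1 and Mmrn1 were higher in ECs and Reln, which is also on the HSC list, in HSCs. The calls of Vwf, Hey1 and Mmrn1 were lost in 6, 6 and 7 of the 8 fits that left out a library (adjusted p up to 0.115, 0.11 and 0.12). Of all these markers only Ly6g of the neutrophil list had 0 counts over a cell type, the ECs. For a number of the members described here the level in hepatocytes or Kupffer cells is given beside it. These levels are scaled with TMM factors of all 16 libraries, and EC and HSC levels with those of the 8 libraries compared.

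Across 16152 genes, 5111 (31.6%) differed between ECs and HSCs with the genotype label in the fit, 2554 (15.8%) higher in ECs and 2557 (15.8%) higher in HSCs. The median log2 fold change (EC minus HSC) over all genes tested was 0.03. A gene is called split when it passed the threshold with a difference of at least 8-fold. By this rule 1860 genes (11.5%) were split, 781 (4.84%) to the EC side and 1079 (6.68%) to the HSC side. By a separate rule 4265 genes (26.4%) were shared, that is, at least 10 CPM in both cell types with a 95% interval of the log2 fold change inside -1 to 1. These are 55.2% of the 7727 genes with 10 CPM in both. Of the shared genes 299 also passed the threshold, with a difference under the bound of the interval. The 4 EC and 4 HSC libraries did not overlap for 5221 genes (32.3%).

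**Figure D2:**
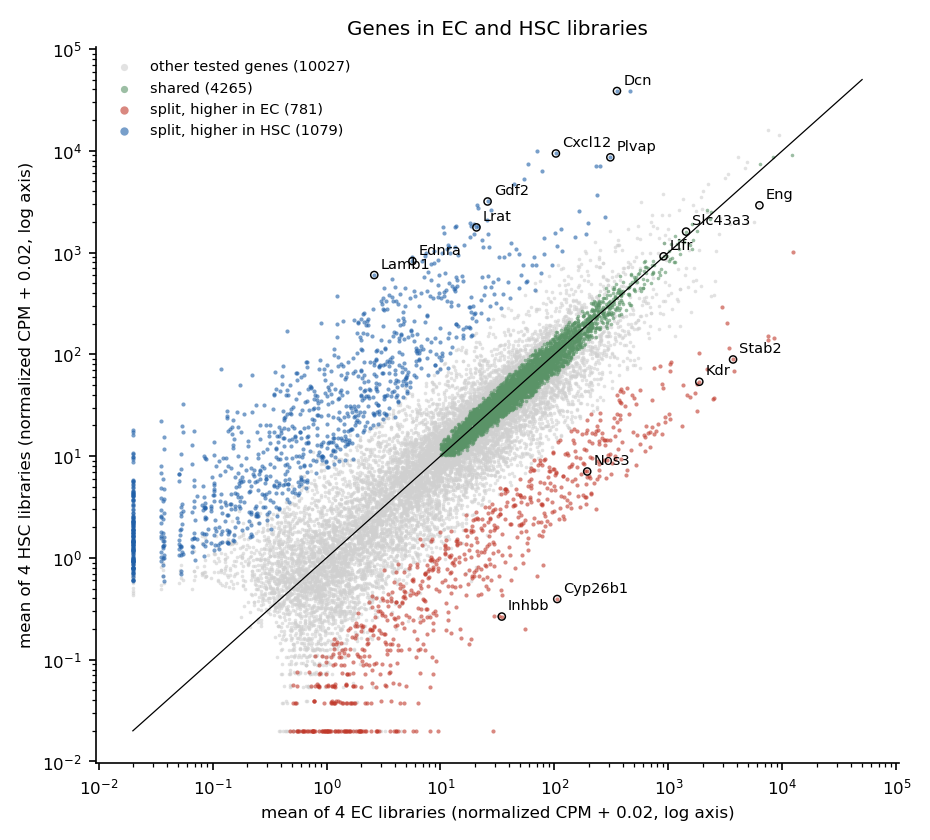
Mean of the 4 EC libraries (x axis) against the mean of the 4 HSC libraries (y axis) for each of the 16152 genes tested, in normalized CPM plus 0.02 on log axes, with equality as a line. The 781 genes split to ECs are red, the 1079 split to HSCs blue and the 4265 shared genes green, and circles mark named genes.

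The protein-coding genes of greatest fold difference were taken from those that reached 20 CPM in ECs or HSCs, did not overlap between libraries and were neither hepatocyte- nor Kupffer-enriched. On the EC side the first was Cyp26b1 (ENSMUSG00000063415, GRCm38 chr6:84571414-84593908), which breaks down retinoic acid. It reached 234, 57.7, 17.4 and 114 CPM in ECs and 0, 0.69, 0.652 and 0.156 CPM in HSCs, a log2 fold change of 8.02 ± 1.04 (SE, adjusted p = 4.31e-04, edgeR quasi-likelihood test). It was followed by Inhbb, the activin B subunit, at 7.29, Flrt1, an adhesion protein, at 6.94, Cd209b, a pathogen-binding lectin, at 6.77, C5ar2, a receptor for the complement fragment C5a, at 6.66, and Col13a1, a transmembrane collagen, at 6.54. Rab3b, Myzap, Fam167b and Shank3 complete the 10, at 6.26 to 6.53. In all 10 the lowest EC library lay above the highest HSC library, as the rule for naming them required.

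On the HSC side Grhl3, a grainyhead transcription factor, had 1 read over the 4 EC libraries and 1207 over the 4 HSC libraries, a ratio of 1323 (95% counting interval 237 to 52286). Cdh18, a cadherin, had 2 reads over the 4 EC libraries and 1827 over the 4 HSC libraries, a ratio of 1001 (95% counting interval 277 to 8272). The next were Tmem100, a membrane protein induced by BMP9 and BMP10 signalling in other vessels, at a log2 fold change of -9.47, Eps8, an actin regulator, at -8.68, Aldh1a3, which makes retinoic acid, at -8.29, Il34, a ligand of the CSF1 receptor, at -8.23, and Nrxn3, a neurexin, at -8.20. Tcf21, a transcription factor of HSCs, stood at -7.98. Lamb1, a laminin chain, stood at -7.93. Vipr1, a receptor for vasoactive intestinal peptide, stood at -7.81 with 1745, 1968, 1381 and 1143 CPM in HSCs.

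Ligands and receptors of the sinusoid wall were found on both sides. The pairs and gene lists were chosen with earlier results of these data known, and some members are also EC or HSC markers. Here and below, shares of list members called are therefore set beside those of all genes as a description and not as a test. Of 239 genes in 175 ligand and receptor pairs, 217 could be tested, and 148 (68.2%, against 31.6% of all genes tested) were called, 63 higher in ECs and 85 higher in HSCs. The split rule took 34 of them to the EC side and 59 to the HSC side, and 11 were shared. Their median log2 fold change was -0.29. Of the 109 ligands tested 51 were higher in HSCs and 30 in ECs. Of the 113 receptors tested 36 were higher in HSCs and 35 in ECs. A total of 5 adhesion molecules that bind their own kind stand in both roles. The EC and HSC libraries did not overlap for 144 of the 217 tested, against 32.3% of all genes tested. The 22 members that were not tested had means of at most 0.704 CPM, and 7 of them had 0 counts in all 8 libraries. The 58 members that were neither called nor shared had log2 fold changes from -2.79 to 2.71, and 34 of them stood under 10 CPM in both cell types. Of the 148 calls 129 held whichever of the 8 libraries was left out, and the other 19 are named beside their families.

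Sorting pairs by where ligand and receptor were higher gave 22 pairs with the ligand higher in HSCs and the receptor higher in ECs, and 12 with the ligand higher in ECs and the receptor higher in HSCs. In 27 pairs both genes were higher in HSCs and in 21 both were higher in ECs. Of these, 25 and 19 were pairs of different genes. The others pair an adhesion molecule with itself and can only fall on 1 side. In a further 52 pairs 1 gene passed the threshold, in 18 neither did, and in 23 at least 1 gene was too low to test. These are pairs of transcript levels. Protein, secretion and binding were not measured. Pairs share members, so that they are not independent of each other. In the plot of pairs the positions of Fgf2, Fzd6 and Tnfrsf10b, with 2 or 3 reads in a cell type, depend on the prior count of the fit.

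**Figure D3:**
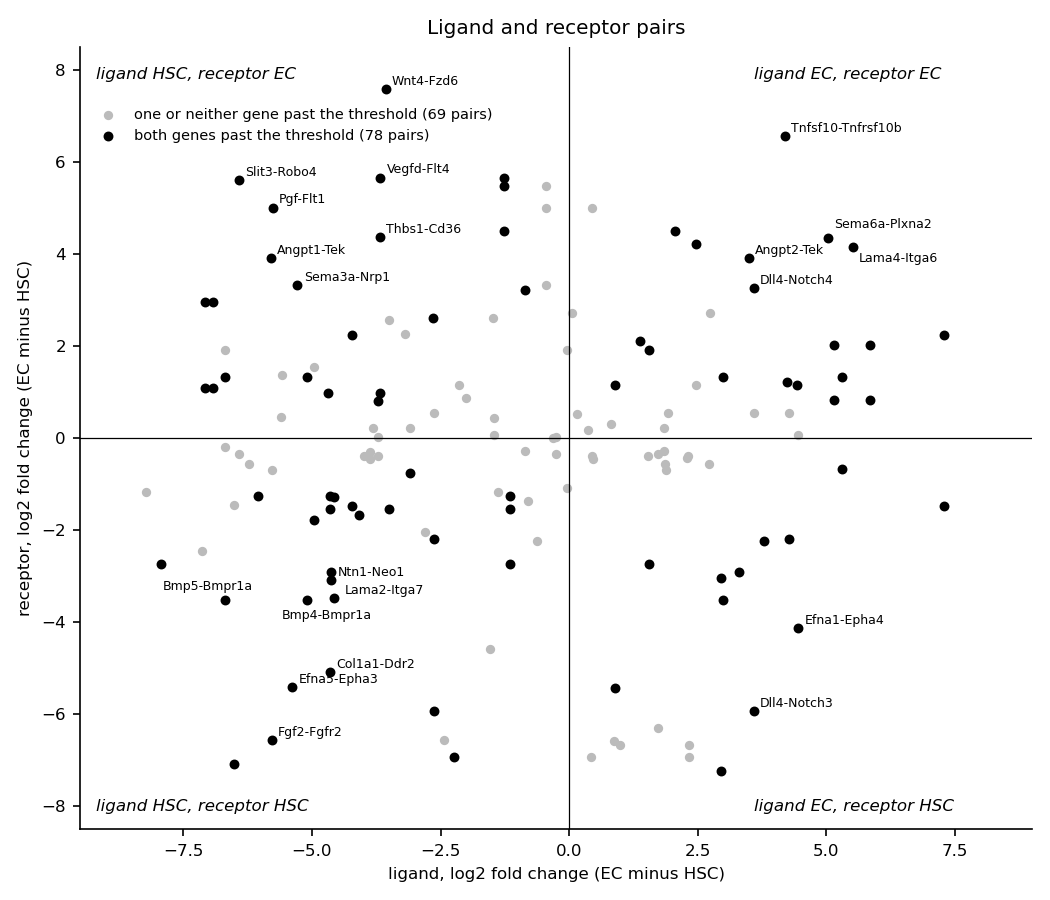
Log2 fold change (EC minus HSC) of the ligand (x axis) and the receptor (y axis) for each tested pair of different genes. Black points mark the 78 pairs with both genes past the threshold, names mark pairs among them in which both genes are also split, and the upper left field holds pairs such as Angpt1 with Tek, whose ligand is higher in HSCs and whose receptor is higher in ECs.

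In the endothelin family the ligand was higher in ECs and both receptors in HSCs. Edn1, the precursor of the constrictor endothelin-1, reached 20.2, 9.87, 8.91 and 27.9 CPM in ECs and 3.16, 0.207, 0.507 and 4.91 CPM in HSCs. All EC libraries lay above all HSC libraries, with a log2 fold change of 2.96 ± 0.82 and an adjusted p of 0.0309. The call was lost without the EC library WT 34, the EC library KO 46 or the HSC library KO 8, with a log2 fold change of 2.56 to 3.80 and an adjusted p of up to 0.104 over the fits that left out a library. Ednra, the constrictor receptor, reached 8.07, 6.28, 3.2 and 5.07 CPM in ECs and 852, 914, 951 and 578 CPM in HSCs, a 150.2-fold difference (log2 -7.23 ± 0.24). Ednrb, the other endothelin receptor, was also higher in HSCs, at 1847, 954, 1459 and 1757 CPM against 350.3, 122, 134 and 146 CPM in ECs. Per kb of exon the HSC level of Ednrb was 353 CPM and that of Ednra 150.4 CPM. Edn3 was too low to test.

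Promoters are shown for 1 pair in each direction across the wall, Edn1 (EC) with Ednra (HSC), and Gdf2, an HSC ligand whose receptor genes are higher in ECs. The 250 bases before the start of the gene are given on the strand of the gene (RefSeq, GRCm38.p6). Capitals mark the letters of 6 motifs, each searched on both strands, which do not contain each other. Of the 16152 genes tested 11446 had a window in the table. The letters for ETS factors (CAGGAAG) stood in 10.4% of these windows and those for SOX factors (AACAAT) in 5.37%. Those for GATA factors (AGATAA) stood in 6.33% and the E-box searched (CAGCTG) in 12.0%. Those for forkhead factors (TGTTTAC) stood in 2.25% and those for TEAD factors (GGAATG) in 10.8%. No window was found for Acvrl1.
Edn1, chr13:42301226-42301475, plus strand: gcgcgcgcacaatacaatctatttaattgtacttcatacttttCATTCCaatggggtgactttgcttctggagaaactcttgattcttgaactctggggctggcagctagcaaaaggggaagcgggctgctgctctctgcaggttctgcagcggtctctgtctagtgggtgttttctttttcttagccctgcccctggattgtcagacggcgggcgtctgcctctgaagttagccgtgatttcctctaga
Ednra, chr8:77724453-77724702, minus strand: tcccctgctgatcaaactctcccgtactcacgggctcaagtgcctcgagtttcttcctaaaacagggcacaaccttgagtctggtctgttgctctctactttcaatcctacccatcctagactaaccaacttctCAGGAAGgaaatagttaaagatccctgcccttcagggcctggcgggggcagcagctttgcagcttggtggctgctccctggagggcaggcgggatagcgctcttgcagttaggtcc
Gdf2, chr14:33940789-33941038, plus strand: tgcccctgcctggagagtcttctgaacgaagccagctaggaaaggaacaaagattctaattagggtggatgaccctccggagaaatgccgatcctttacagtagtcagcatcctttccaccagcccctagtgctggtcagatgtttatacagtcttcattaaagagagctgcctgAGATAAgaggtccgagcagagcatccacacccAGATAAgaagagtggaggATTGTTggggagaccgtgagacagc

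The window of Gdf2 held the GATA letters at 2 places and the SOX letters, as the reverse complement, at 1. That of Edn1 held the TEAD letters as the reverse complement, and that of Ednra held the ETS letters. A match of letters is a description and not a binding site.

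The gene that makes nitric oxide was higher in ECs and the genes that sense it in HSCs. Nos3, the endothelial nitric oxide synthase, reached 239, 297, 165 and 73.6 CPM in ECs and 11.9, 10.4, 2.61 and 3.27 CPM in HSCs (log2 4.94 ± 0.28). The genes of the soluble guanylate cyclase that senses nitric oxide lay on the HSC side, with Gucy1a1 at 796, 875, 845 and 874 CPM in HSCs and 12.1, 15.9, 3.81 and 6 CPM in ECs (log2 -6.66 ± 0.32) and Gucy1b1 at 53.2-fold (log2 -5.73 ± 0.25). The downstream kinase Prkg1 and the phosphodiesterase Pde5a were also higher in HSCs, at log2 -1.75 and -1.66. No library of the 4 ECs overlapped an HSC library for Nos3, Gucy1a1 or Gucy1b1.

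Of 20 genes of nitric oxide, prostanoid and lipid signalling, 19 were tested and 16 called, 6 higher in ECs and 10 in HSCs. Of all genes tested 31.6% were called. The sphingosine-1-phosphate receptor S1pr1, which supports the endothelial barrier, reached 317 ± 72.9 CPM (mean ± SD, n = 4) in ECs and 8.53 ± 4.74 CPM in HSCs. S1pr3 was the reverse, at 11.7 ± 8 CPM in ECs and 1189.7 ± 271 CPM in HSCs, and S1pr2 was 7.83-fold higher in HSCs. Among lysophosphatidic acid receptors Lpar6 was 12.9-fold higher in ECs and Lpar1 19.2-fold higher in HSCs. Cnr2, a cannabinoid receptor, was EC-sided at 207 ± 76.8 CPM against 4.22 ± 4.62 CPM. Adora2a, an adenosine receptor, was 2.72-fold higher in HSCs. Ptgs1, which starts prostanoid synthesis, was 7.63-fold higher in ECs, and it is abundant in Kupffer cells (1113 CPM). The calls of Ptgis, Sphk1 and Lpar4 were lost without single libraries, with adjusted p up to 0.113, 0.112 and 0.109.

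Of 12 peptide hormone genes tested 7 were called, 3 higher in ECs and 4 in HSCs, against 31.6% of all genes called. Agtr1a, the angiotensin II receptor, reached 1805 ± 604 CPM in HSCs and 21.1 ± 15.3 CPM in ECs, while its precursor Agt is a hepatocyte gene (2874 CPM there) and was not called. Pth1r, the parathyroid hormone receptor, reached 1800.1 ± 388 CPM in HSCs and 10.5 ± 4.75 CPM in ECs. The natriuretic peptide receptors were divided, with Npr1, the guanylate cyclase, 37.8-fold higher in ECs, Npr3, the clearance receptor, 28.1-fold higher in HSCs, and Npr2 shared (log2 0.31, 95% interval -0.05 to 0.68). Their ligands Nppa, Nppb and Nppc were too low to test. Lepr, the leptin receptor, was 11.2-fold higher in ECs. Ramp2, which turns Calcrl into the adrenomedullin receptor, was 9.36-fold higher in ECs, while Calcrl itself stood at 128 and 161 CPM and was neither called nor shared. Adm was called slightly higher in HSCs (log2 -0.85 ± 0.25), a call lost in 7 of the 8 fits that left out a library (adjusted p up to 0.0791).

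**Figure D4:**
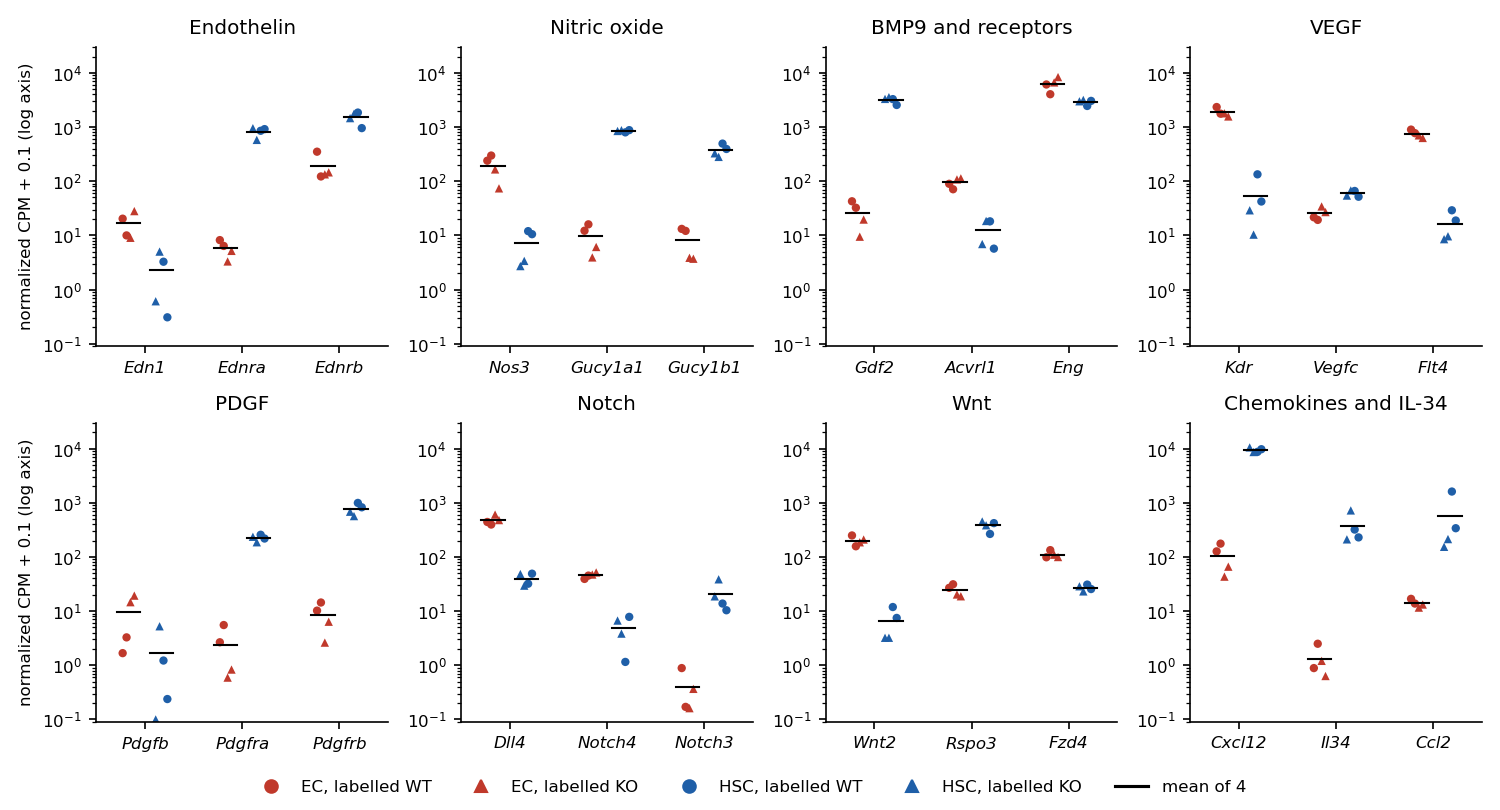
Level of 24 genes in each of the 8 libraries (y axis, normalized CPM plus 0.1, log scale), with ECs in red, HSCs in blue, circles for libraries labelled WT, triangles for those labelled KO and bars for the mean of 4. Edn1 and Nos3 are higher in ECs. The endothelin receptors Ednra and Ednrb and the guanylate cyclase genes Gucy1a1 and Gucy1b1 are higher in HSCs. Pdgfb is the gene whose groups overlap.

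In the VEGF family the receptors lay on the EC side. Kdr (ENSMUSG00000062960, chr5:75932827-75978458) was 44.5-fold higher in ECs (log2 5.47 ± 0.51), Flt1 32.2-fold, Flt4, the receptor of VEGF-C and VEGF-D, 50.6-fold, and the coreceptors Nrp1 and Nrp2 10.1-fold and 22.8-fold. Vegfc was higher in HSCs, at 65.8, 51.5, 54.2 and 67.4 CPM against 21.4, 19.2, 34.1 and 26.8 CPM in ECs. Pgf and Vegfd were low and HSC-sided, at 3.26 and 9.2 CPM in HSCs against 0.0615 and 0.747 CPM in ECs, and the call of Vegfd was lost in 5 of the 8 fits that left out a library (adjusted p up to 0.104). Vegfa, the principal ligand of Kdr, was low in both cells, with means of 1.12 and 1.34 CPM, and was not called. Its mean was 2.13 CPM in hepatocytes, and Vegfb, at 5.57 and 4.09 CPM, was not called either.

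All 3 angiopoietin genes differed, against 31.6% of all genes tested. Tek, their receptor, reached 333 ± 134 CPM in ECs and 23.5 ± 14.2 CPM in HSCs. Angpt2, which antagonises Tek in many settings, was higher in ECs, at 101, 50.2, 98.2 and 82.8 CPM against 4, 2.34, 2.32 and 29.1 CPM. Angpt1, the activating ligand, was higher in HSCs, at 31.2, 15.4, 10.7 and 11.8 CPM against 1.05, 0, 0.246 and 0 CPM. The groups did not overlap for any of the 3 genes.

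In the PDGF family both receptors were HSC-sided, Pdgfra at 256, 219, 235 and 186 CPM against 2.56, 5.43, 0.492 and 0.733 CPM and Pdgfrb, given above, at log2 -6.67 ± 0.31. Pdgfb, the ligand by which ECs recruit mural cells elsewhere, stood at 1.57, 3.17, 14.5 and 19.2 CPM in ECs and at 1.12, 0.138, 0 and 5.14 CPM in HSCs. The 2 EC libraries labelled KO were highest, the groups overlapped, and the difference was not called (log2 2.34 ± 1.03, 95% interval 0.00 to 4.68, adjusted p = 0.13). Kupffer cells held 14.6 CPM of Pdgfb. Pdgfa was 4.71-fold higher in HSCs, and Pdgfc and Pdgfd were not called.

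All 11 BMP genes tested were called, 5 higher in ECs and 6 in HSCs, against 31.6% of all genes called. Gdf2, which encodes BMP9, a circulating factor of vascular quiescence, reached 3273, 2552, 3302 and 3558 CPM in HSCs and 42.5, 32.2, 9.34 and 19.5 CPM in ECs (log2 -7.08 ± 0.37). Bmp10, the closest relative of Gdf2, was also HSC-sided at 60.1 CPM against 0.575 CPM, as were Bmp5 (367 against 3.72 CPM) and Bmp4 (155 against 4.53 CPM). Bmp2 and Bmp6, which tell hepatocytes to make hepcidin, were higher in ECs, Bmp2 at 1463, 970.5, 1030.1 and 1095 CPM against 253, 156, 104 and 94.7 CPM and Bmp6 at 41.3, 33.9, 37.9 and 45.7 CPM against 0, 0.552, 1.3 and 3.2 CPM. Per kb of exon Gdf2 stood at 1061 CPM in HSCs and Bmp2 at 321 CPM in ECs.

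The receptors of BMP9 and BMP10 were higher in ECs. Acvrl1, the type I receptor ALK1, stood at 89.3, 70.9, 108 and 113 CPM in ECs and 18, 5.58, 6.81 and 18.3 CPM in HSCs, and it was higher still in Kupffer cells, at 208 CPM. Eng, the coreceptor endoglin, was abundant in both cells, at 6097, 4030.3, 6658 and 8345 CPM in ECs and 2447, 3034, 2984 and 3162 CPM in HSCs, a 2.12-fold difference (log2 1.09 ± 0.22, adjusted p = 0.00609). Bmpr2 was 2.52-fold higher in ECs and Bmpr1a 11.5-fold higher in HSCs. Acvr1 was higher in HSCs at log2 -0.67 ± 0.20, a call lost in 6 of the 8 fits that left out a library (adjusted p up to 0.0927). The decoy receptor Bambi was 5.11-fold higher in HSCs.

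Activin subunits were on opposite sides. Inhbb reached 53.5, 41.2, 17.6 and 25.5 CPM in ECs and 0.842, 0.138, 0 and 0 CPM in HSCs, while Inhba reached 53.8, 57.8, 53.2 and 59.7 CPM in HSCs and 4.26, 9.8, 1.41 and 0.667 CPM in ECs, with 33.6 CPM in hepatocytes. Of their receptors Acvr1b was 4.7-fold higher in ECs and Acvr2a 2.79-fold higher in HSCs. Among TGF-beta ligands Tgfb1 was higher in ECs (20.3 against 5.69 CPM), with 16.1 CPM in Kupffer cells, and Tgfb2 and Tgfb3 were 8.48-fold and 14-fold higher in HSCs, Tgfb3 at 24 CPM there and 22.9 CPM in Kupffer cells. The receptor Tgfbr2 was shared, at 209 and 182 CPM with 182 CPM in Kupffer cells (log2 0.21, 95% interval -0.22 to 0.64), and Tgfbr3 was slightly higher in HSCs (log2 -0.77).

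Of 23 secreted antagonists and co-factors tested 10 were higher in HSCs, 1 was higher in ECs and 3 were shared, against 15.8% of all genes called in each direction. Hhip, a hedgehog decoy, reached 195 ± 95.3 CPM in HSCs and 2.19 ± 1.96 CPM in ECs. Fstl1, Ltbp1, Ltbp3 and Igfbp3 were 56.2-fold, 31.1-fold, 19.1-fold and 159-fold higher in HSCs. Igfbp4 was the member higher in ECs (4.07-fold), with 1918 CPM in hepatocytes. Ltbp4 and Lrrc32, which hold latent TGF-beta, and Dkk3 were shared. The call of Igfbp7 was lost without single libraries (adjusted p up to 0.117).

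Of 11 Wnt genes tested 8 were called, 5 higher in ECs and 3 in HSCs, against 31.6% of all genes called. Wnt2, a ligand of pericentral sinusoids that acts on hepatocytes, reached 249, 157, 186 and 209 CPM in ECs and 11.8, 7.38, 3.11 and 3.12 CPM in HSCs, and Wnt9b reached 7.06 and 0.121 CPM. Rspo3, which amplifies Wnt signals, was HSC-sided at 266, 421, 451 and 384 CPM against 26.8, 31.2, 20.2 and 18.7 CPM in ECs. Wnt4 was 11.9-fold higher in HSCs, and Wnt5a 9.15-fold, a call lost in 5 of the 8 fits that left out a library (adjusted p up to 0.0794). Of the receptors Fzd4 was 4.09-fold higher in ECs. Fzd6 had 489 reads over the 4 EC libraries and 2 over the 4 HSC libraries, a ratio of 223 (95% counting interval 61.4 to 1848). The coreceptor Lrp6 was higher in ECs at log2 0.83 ± 0.27, lost in 7 of these fits (adjusted p up to 0.122). Lgr4, the R-spondin receptor, was low in both cells (3.3 and 4.3 CPM) and stood at 20.1 CPM in hepatocytes.

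In the Notch family Dll4 reached 442, 396, 605 and 479 CPM in ECs and 31.9, 49, 48.2 and 29.4 CPM in HSCs, and Dll1 was 19.4-fold and the endothelial receptor Notch4 9.56-fold higher in ECs. Notch3, the receptor of mural cells, stood at 13.7, 10.3, 18.6 and 38.5 CPM in HSCs and 0.787, 0.0705, 0.0615 and 0.267 CPM in ECs. Jag1 and Notch2 were 6.14-fold and 4.58-fold higher in HSCs, Notch1 was not called (262 and 185 CPM), and Jag2 was low and not called. The Notch targets on the transcription factor list differed, with Heyl 121-fold higher in HSCs and Hes1 shared (log2 0.20, 95% interval -0.50 to 0.90). Dhh and its receptor Ptch1 were 16.9-fold and 3.18-fold higher in HSCs, and Shh and Ihh were too low to test.

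Hgf, a growth factor for hepatocytes, reached 795, 712, 845 and 632 CPM in HSCs and 77.7, 106, 42.7 and 51.1 CPM in ECs, and its receptor Met was low in both cells (2.29 and 0.83 CPM) and higher in hepatocytes (19.5 CPM). Fgfr2 was 94.9-fold higher in HSCs, at 574 CPM. Fgf2 had 3 reads over the 4 EC libraries and 156 over the 4 HSC libraries, a ratio of HSC over EC of 57 (95% counting interval 19.1 to 279). Fgf1 was higher in ECs at 3.7-fold, but its hepatocyte level was 136 CPM and the call was lost without the EC library WT 34 or KO 6 (adjusted p up to 0.0619). Fgfr3 was 2.44-fold higher in ECs and stood at 35.5 CPM in hepatocytes. Of the EGF family Hbegf was 6.55-fold higher in ECs, with 568 CPM in Kupffer cells, and Ereg was low and HSC-sided (8.03 against 0.116 CPM). Igf2 was HSC-sided at 10.4 against 0.596 CPM, a call lost without the EC library KO 6 (adjusted p = 0.0596), and Igf1r was shared.

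Of 17 chemokine genes tested 9 were called, 5 higher in ECs and 4 in HSCs, against 31.6% of all genes called. Cxcl12, a retention signal for leukocytes and progenitors, reached 8695, 9736, 10503 and 8646 CPM in HSCs and 127, 176, 43.1 and 66 CPM in ECs (log2 -6.69 ± 0.34), with 473 CPM in hepatocytes. Its receptors Cxcr4 and Ackr3 were low and not called, at 1.4 and 15.1 CPM in ECs and 0.472 and 17.2 CPM in HSCs. Cx3cl1 was 48.3-fold higher in HSCs, at 110.4 CPM. Ccl2 was higher in HSCs at 1611, 339, 154 and 213 CPM against 16.7, 13.7, 11.5 and 13.1 CPM, with the library WT 32 highest, and Kupffer cells held 411 CPM. Cxcl1 was 4.02-fold higher in HSCs, with 969 CPM in Kupffer cells and 510.5 CPM in hepatocytes.

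On the EC side Cxcl9 and Cxcl16 were 6.65-fold and 2.58-fold higher, with 495 CPM of Cxcl16 in Kupffer cells, and Cxcl10 was high in both cells without a call (633 and 717 CPM). Ccl5, Ccr7 and Cxcr6, which lymphocytes also express, were 4.87-fold, 7.74-fold and 4.33-fold higher in ECs, where the lymphocyte markers were higher as well. Their part in these calls was not tested. The calls of Cxcl9 and Cxcr6 were lost without single libraries (adjusted p up to 0.0637 and 0.14).

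Both ligands of the CSF1 receptor, which sustains macrophages, were higher in HSCs. Il34 reached 320, 229, 211 and 722 CPM in HSCs and 0.787, 2.4, 1.11 and 0.533 CPM in ECs, and Csf1 593, 338, 300.3 and 318 CPM in HSCs and 152, 149.6, 117 and 160.3 CPM in ECs. Csf1r itself was not called and belongs to Kupffer cells (4880.3 CPM). Kit and its ligand Kitl were 18.5-fold and 5.52-fold higher in ECs.

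In the IL-6 family the coreceptor Lifr was shared, at 906 ± 168 CPM in ECs and 917 ± 218 CPM in HSCs (log2 -0.01, 95% interval -0.51 to 0.50), and Il6st stood at 731 and 561 CPM without a call. Il11ra1 was 3.45-fold higher in HSCs, and Il11, at 2.44 CPM there, lost its call without the HSC library WT 40 (adjusted p = 0.054). Of IL-1 and TNF genes Il1a was 13.9-fold higher in ECs, with 2071 CPM in Kupffer cells, and Il1r1 was 4.74-fold higher in HSCs. Tnfsf10, which encodes TRAIL, reached 40.7 ± 14.3 CPM in ECs and 2.13 ± 0.988 CPM in HSCs, and its receptor Tnfrsf10b had 259 reads over the 4 EC libraries and 2 over the 4 HSC libraries, a ratio of 118 (95% counting interval 32.4 to 981). Tnfrsf1a was shared. Il33 was called higher in HSCs, lost in 5 of the 8 fits (adjusted p up to 0.0906).

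Of the TAM receptors, which clear apoptotic cells, Mertk and the ligand Gas6 were 3.77-fold and 2.95-fold higher in ECs, and Axl was 6.69-fold higher in HSCs, with 271 CPM of Mertk and 1295 CPM of Axl in Kupffer cells. The second ligand, Pros1, was shared (398 and 420.5 CPM).

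Of 12 genes of semaphorins and their plexin and neuropilin receptors tested 10 were called, among them Nrp1 and Nrp2, given above with the VEGF family. Of 9 Slit and netrin genes 7 were called and of 9 ephrin genes 8, against 31.6% of all genes tested. These families guide axons and also growing vessels. Robo4, an endothelial receptor, reached 959, 772, 1136 and 1253 CPM in ECs and 47.9, 19.2, 9.99 and 15.8 CPM in HSCs. Robo2 was 79.2-fold and Slit3 85.7-fold higher in HSCs, while Robo1 was not called. Netrin genes were opposite, with Ntn1 24.6-fold higher in HSCs (310.1, 329, 302 and 264 CPM) and Ntn4 9.91-fold higher in ECs. The netrin receptors Unc5b and Neo1 were both higher in HSCs, at 7.51-fold and 8.5-fold. Sema6a with Plxna2 lay on the EC side (32.7-fold and 20.4-fold), together with Plxnd1, Plxnc1 and Sema3f, and Sema3a, Sema3d and Plxnb1 lay on the HSC side.

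Of the ephrins Efnb2, a mark of arterial endothelium, was 21.5-fold higher in ECs, and its receptor Ephb4, a mark of veins, 2.22-fold. Efna5 and its receptor Epha3 were 41.8-fold and 42.8-fold higher in HSCs, Epha4 was 17.6-fold higher there, and Epha2 was shared. Efna1 was 21.9-fold higher in ECs, at 278, 269.9, 420.4 and 382 CPM, but its level in hepatocytes was 795 CPM. Efnb1 lost its call without the EC library KO 46 and Ephb2 without the HSC library WT 40 (adjusted p = 0.0596 and 0.0515).

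Of 8 neurotrophin genes tested 4 were called, against 31.6% of all genes tested, and all 4 were higher in HSCs. Ngfr, the low-affinity neurotrophin receptor, reached 2072, 2546, 1373 and 1894 CPM in HSCs and 26.6, 31.9, 4.67 and 8.8 CPM in ECs, with no overlap. Ntf3 was present in both cells and slightly higher in HSCs (log2 -0.79 ± 0.17), and Ntrk2 was higher there with a call lost in 6 of the 8 fits (adjusted p up to 0.174). Reln, a secreted matrix protein best known from brain layering, reached 1778 ± 252 CPM in HSCs and 13.4 ± 8.44 CPM in ECs, with its receptors Vldlr not called and Lrp8 too low to test.

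Of 32 matrix genes 25 were called, 22 higher in HSCs and 3 in ECs, with 4 shared. Of all genes tested 31.6% were called, 15.8% in each direction, and 26.4% were shared. Col1a1, Col1a2 and Col3a1, the fibrillar collagens, were 25-fold, 47.7-fold and 65.8-fold higher in HSCs. Col4a1, a basement membrane collagen, was also higher in HSCs, at 264 and 582 CPM (log2 -1.14 ± 0.16). Of the laminin chains Lama4 reached 243, 196, 375 and 328 CPM in ECs and 10.5, 4, 4.78 and 5.22 CPM in HSCs, and Lamb1 reached 711, 707, 526 and 458 CPM in HSCs and 6.3, 1.06, 1.66 and 1.4 CPM in ECs. Lamc1 was 11.3-fold and Lama2 23.7-fold higher in HSCs, and Lamb2 was shared (83.4 and 99.7 CPM). Col13a1 and Hspg2, which encodes perlecan, were 93.4-fold and 3.92-fold higher in ECs. Adamts13, the protease that cuts von Willebrand factor, was 132-fold higher in HSCs, at 978 CPM. Timp3, Mmp14 and Adamts1 were shared. The calls of Col4a2 and Timp2 were lost without single libraries (adjusted p up to 0.122 and 0.139).

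The matrix receptors Itga8, Itga9 and Itgav were shared, with log2 fold changes of -0.44, 0.03 and -0.39. Itga6, a laminin receptor, was 17.7-fold higher in ECs. Itgb1, Itga1 and Dag1 were 2.93-fold, 2.39-fold and 2.42-fold higher in HSCs, and Ddr2, a receptor for fibrillar collagen, 33.9-fold. Cd36, a receptor of thrombospondin and fatty acids, was 20.6-fold higher in ECs, with its ligands Thbs1 and Thbs2 12.8-fold and 25.6-fold higher in HSCs. Fn1 was 13.1-fold higher in HSCs, with 480.3 CPM in hepatocytes. Of the adhesion molecules Pecam1, Cdh5 and Selp were EC-sided, Cdh2 and Ncam1 were HSC-sided, and Vcam1 was 4.42-fold higher in HSCs, with 1115 CPM in Kupffer cells. The calls of Ddr1, Itga5, Itga7 and Selplg were lost without single libraries (adjusted p up to 0.0781, 0.125, 0.0984 and 0.103).

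Of 40 lineage transcription factors 39 were tested, 21 were higher in ECs, 12 in HSCs and 3 shared. Of all genes tested 15.8% were called in each direction and 26.4% were shared. Sox7, Sox17 and Sox18 were 32.3-fold, 47.2-fold and 75.5-fold higher in ECs, with Erg, Gata2, Maf, Meis2 and Tal1 also split to that side. Tbx20, Heyl, Lhx2, Hand2 and Foxf1 were split to the HSC side along with Tcf21. Gata4, which specifies sinusoidal endothelium and is also active in HSCs, was 2.42-fold higher in ECs, at 518, 326, 312 and 469.9 CPM against 127, 217, 129.5 and 199 CPM, and Gata6 was 14.1-fold higher in HSCs. The ZEB factors were opposite, with Zeb1 5.24-fold higher in ECs (log2 2.39 ± 0.16) and Zeb2 3.96-fold higher in HSCs (log2 -1.98 ± 0.17). Nr2f2, Hes1 and Rarb were shared. The calls of Pparg, Prrx1 and Tcf7l2 were lost without single libraries (adjusted p up to 0.0797, 0.0641 and 0.0981). Twist1 was low and called higher in ECs, at 2.02 CPM in ECs and 0.078 CPM in HSCs.

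Of 11 genes of retinoids and lipid droplets 4 were higher in each cell type, against 15.8% of all genes. Lrat and Aldh1a1 were 97.2-fold and 8.87-fold higher in HSCs, with 1321 CPM of Aldh1a1 in hepatocytes. The HSC gate rests on retinoid droplets, so that genes of retinoid storage such as Lrat are not independent of the sort. Cyp26b1, described above, and Dhrs3, which reduces retinal to retinol, were higher in ECs, Dhrs3 at 1077 ± 202 CPM against 277 ± 107 CPM. Cyp26a1 and Rbp4, at 209.8 and 10218 CPM in hepatocytes, were also called higher in ECs, and Cyp26a1 lost its call in 6 of the 8 fits (adjusted p up to 0.0734). Plin2 and Pnpla2, genes of the lipid droplet, were not called.

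All 15 scavenger and endocytosis genes were called, 13 higher in ECs, against 31.6% of all genes called and 15.8% higher in ECs. Stab1, Stab2, Mrc1, Fcgr2b and Clec4g were 46.8-fold, 42-fold, 35.6-fold, 61.1-fold and 50.5-fold higher in ECs. Lrp1, a large endocytic receptor, was the reverse, 27.2-fold higher in HSCs. Of 13 cytoskeleton and mural genes, against 15.8% of all genes in each direction, none were higher in ECs and 10 in HSCs. Des, Rgs5, Abcc9 and Kcnj8 were 67.4-fold, 115-fold, 48.1-fold and 23.5-fold higher there. Acta2, the marker of activated HSCs, stood at 27.9, 33.5, 57.3 and 179.8 CPM in HSCs and 15.8, 26.6, 6.09 and 4.47 CPM in ECs and was not called (adjusted p = 0.0643). Mcam was shared.

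Of 12 genes induced by tissue dissociation 6 were higher in HSCs, none in ECs and 1, Dusp1, shared, against 15.8% of all genes called in each direction and 26.4% shared. Jun, Junb and Egr1 were 2.12-fold, 1.71-fold and 2.13-fold higher in HSCs, and Fos stood at 9408 CPM in ECs and 14424 CPM in HSCs without a call. Ccn1, an immediate early gene that is also a matrix ligand, was 5.34-fold higher in HSCs. Junb lost its call without the EC library KO 6 (adjusted p = 0.0508). The part of dissociation in the other differences was not tested. Of 10 housekeeping genes 3 were called, a share near the 31.6% of all genes, and 6 were shared, against 55.2% of the genes with 10 CPM in both cell types. Hprt and Rplp0 were 1.96-fold and 1.66-fold higher in ECs, and Actb was higher in HSCs (log2 -0.67, adjusted p up to 0.09 without single libraries).

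Some shared genes were low in the other cells of the liver. Of the 4265 shared genes 41 had means in Kupffer cells and in hepatocytes at least 8-fold below both the EC and the HSC mean. Among them was Slc43a3, a purine transporter, at 1279, 1199, 1521 and 1712 CPM in ECs and 1197, 1577, 1891 and 1753 CPM in HSCs against means of 59.9 CPM in Kupffer cells and 14.7 CPM in hepatocytes. Its log2 fold change was -0.17 (95% interval -0.55 to 0.21). Adamts1, a matrix protease, stood at 1142 ± 335 and 1442 ± 596 CPM, and Tmem204 at 1186 ± 304 and 1203 ± 228 CPM. Tmem204 had 38.6 and 12.1 CPM in the other cells.

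Lrrc32, which displays latent TGF-beta at the cell surface, stood at 525 ± 233 CPM in ECs and 513 ± 171 CPM in HSCs, against 19.3 CPM in Kupffer cells and 6.07 CPM in hepatocytes. Ltbp4, a latent TGF-beta binding protein, stood at 318 ± 86.2 and 307 ± 109.6 CPM. Timp3, an inhibitor of metalloproteases, stood at 369.8 ± 215 and 270.3 ± 53.7 CPM, and Pxdn, a peroxidase that crosslinks collagen IV, at 161 ± 34.2 and 167 ± 26.2 CPM. The cell cycle gene Ccnd2 stood at 835 ± 58.5 CPM in ECs and 604 ± 97.5 CPM in HSCs and was not called (95% interval 0.11 to 0.85). The 20 of them taken by CPM, an order that exon length also sets, also hold Cdc42ep1, Chst15, Rcn1, Sh2d3c, Apbb2, Rhoj, Gnb4, Dock6, Ppic, Pla2r1, Ctdspl and Dkk3. The remaining genes include the retinoic acid receptor Rarb, the integrin Itga8, the mural and endothelial adhesion molecule Mcam and the orphan receptor Adgra2.

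**Figure D5:**
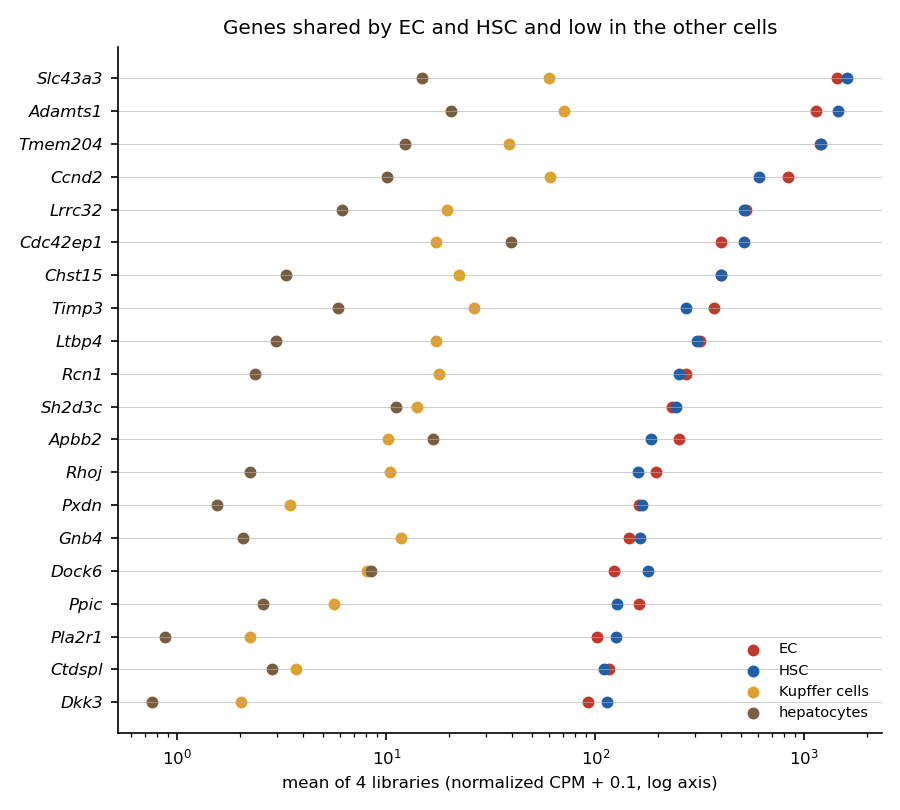
Mean of 4 libraries in each of the 4 cell types (x axis, normalized CPM plus 0.1, log scale) for the 20 genes of highest CPM (not corrected for length) that are shared by ECs and HSCs and low in Kupffer cells and hepatocytes. For each gene the EC and HSC points lie close together and both lie at least 8-fold above the other cells, which is what the rule asks for.

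No gene passed the test of whether the difference between ECs and HSCs itself differed between the genotype labels. The interaction test with edgeR called 0 of 16152 genes, with 1079 genes (6.68%) at an unadjusted p under 0.05, and DESeq2 called 158. The 5 genes with the smallest p were Cdh2, Selenbp1, Fam171b, Vipr1 and G0s2, with adjusted p from 0.227 to 0.253. Vipr1 stood at 19.7, 19.1, 1.91 and 2.33 CPM in ECs, lower in the libraries labelled KO, with an interaction of -2.63 ± 0.33 (log2, SE). Fam171b stood at 6.74, 8.83, 110.4 and 59.7 CPM in HSCs, higher in the libraries labelled KO, and at 0.787, 1.97, 0.0615 and 0 CPM in ECs. Cdh2, a cadherin, stood at 7.08, 8.96, 0.43 and 0.4 CPM in ECs. Selenbp1 stood at 36.4, 52.7, 9.65 and 10 CPM and G0s2, a lipase inhibitor, at 49.6, 52.9, 6.52 and 6 CPM in ECs. All 3 were lower in the EC libraries labelled KO, and their hepatocyte means were 55.7, 421 and 305 CPM. The EC libraries labelled WT also held more of the hepatocyte and HSC markers than those labelled KO. Hepatocyte markers stood in ECs at 4.81%, 9.09%, 1.16% and 0.839% of their hepatocyte level (median over the list). HSC markers stood there at 1.18%, 1.37%, 0.354% and 0.661% of their HSC level. The part of this difference between labels in the 5 genes was not tested.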

How the data were processed

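RNA of sorted ECs and HSCs of mouse liver was sequenced in 8 libraries. The deposited values were raw read counts per gene, which the authors made, per the labels, with Trimmomatic 0.32, HISAT2 2.1.0 and HTSeq 0.9.1 on GRCm38. The annotation release and the strand setting are not given in the sources used here, so that a gene and an antisense or overlapping neighbour may share reads. The labels name both Smart-seq2 and a stranded TruSeq kit. The deposited counts held 47729 genes and 5 summary rows of HTSeq, which entered neither library sizes nor tests. Reads on no gene were 8.73% to 14.0% of all. Positions and exon lengths came from GENCODE M21, which held 98.94% of the identifiers.

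Genes were kept with filterByExpr, normalized with TMM (edgeR 4.0.16, R 4.3.3) and tested with the quasi-likelihood test for EC against HSC with the genotype label as a covariate, with Benjamini-Hochberg adjustment over all 16152 genes and a threshold of 0.05. The interaction was tested with the same tool. Errors of log2 fold changes are SE. Levels are TMM-normalized CPM, and levels of different genes are compared only per kb of exon, except that named genes were taken by CPM. Where a cell type held 1 to 3 reads of a gene, the ratio of counts is given with its 95% interval, which covers counting error only. Total reads were 12872706 to 15629598, at which 3 reads over the 4 libraries of a cell type come to about 0.05 CPM. Library pairs within a group were further apart than counting error gives, and the biological coefficient of variation was 45.7%.

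The ligand and receptor pairs, the gene lists and the tests were chosen with earlier results of these data known. Named genes were members of these lists (the split members and the most abundant ones of each family, and those whose call depended on a library), the 10 protein-coding genes of greatest fold difference in each direction with at least 20 CPM, no overlap of the libraries and no enrichment in hepatocytes or Kupffer cells, the 20 shared genes of highest CPM among those low in the other cells, and the 5 with the smallest interaction p. Other genes named with them were chosen after their values were seen. Alternatives were DESeq2 1.42.0, other size factors, other filters on low counts, thinned libraries, all 16 libraries in 1 fit, no genotype label, libraries of 1 label, hepatocyte- and Kupffer-enriched genes left out, and each library left out. The fitting was tested on simulated data. Promoters came from RefSeq. A few members are counted in the lists but not reported by name here.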

Additional observations from a re-analysis of the deposited data

Results flagged for a closer look

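Summed levels were compared within each set of 4 libraries for 13 marker lists. Chance puts about 1 in 20 such sets apart, and 2 sets, both of the 6 neutrophil markers, held a library far from the others. In the EC library WT 38 these markers summed to 74.7 CPM, with 7.53 CPM in the lowest EC library. In the HSC library KO 20 they summed to 42.6 CPM, with 3.84 CPM in the lowest HSC library. None of the 5 that could be tested was called between ECs and HSCs.

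In the 4 genes given here, each with at least 10 CPM in a library, the EC and HSC libraries lay apart in opposite directions under the 2 labels. No gene passed the interaction test at the threshold. With 2 libraries of each cell type per label, some genes show such a pattern by chance. The interaction (KO minus WT, log2) was -1.34 for Sox9, at 18.6, 14.6, 3.93 and 2.6 CPM in ECs and 10.6, 11, 5.21 and 5.61 CPM in HSCs, with 109 CPM in hepatocytes. It was -1.10 for Olfm1 and -1.47 for Gm37125. It was 3.64 for Tyro3, a TAM receptor, at 1.77, 0.564, 7.13 and 5 CPM in ECs and 5.33, 12.9, 4.42 and 3.12 CPM in HSCs.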

How the results depend on the processing

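No called gene changed direction under any alternative run. Of 351 named genes 311 were past the threshold, and 109 lost it under at least 1 alternative. With the WT libraries alone (2 against 2) 2191 genes were called, 1145 split and 2146 shared. With the libraries labelled KO alone 3159 were called and 2783 shared. Both fits hold fewer samples. Leaving out 1 library at a time gave 4044 to 4787 called, 1604 to 1776 split and 3727 to 4136 shared genes, and 0 interaction calls. Over all alternatives 113 to 161 ligands and receptors were called. DESeq2 called 6284 genes. Pairs with the ligand higher in ECs and the receptor higher in HSCs fell from 12 to 6 with the WT libraries alone and to 9 with those labelled KO, those with the opposite order from 22 to 14 and 18. Interaction calls were 158 with DESeq2, 463 without a filter on low counts and 6 with all 16 libraries in 1 fit, against 0 otherwise, and the cause was not tested. The other alternatives stayed within 1.5 times. No paired analysis was possible because no library number was shared between cell types and the mouse of each library is not stated. Genes under about 0.05 CPM were below the floor of 3 reads.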
